A study of Macaca mulatta with 39 samples.

Results

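FAM180A, C1QTNF5, ISM1, HYAL1, MOXD1, KCNJ8 and ATP8B3 are 7 rhesus macaque genes whose signal was high in skin fibroblasts and lower in fibroblasts grown from teratomas. They were chosen by gene symbol from earlier results of these same arrays, by their difference between teratoma and skin fibroblasts, and every probe set that the platform annotation gives to one of them alone was taken. That came to 12 of the 24956 probe sets with a single gene name, and to 7 of 14132 genes. Messenger RNA was measured on single-colour arrays in 13 cultures of Macaca mulatta cells, with 3 arrays per culture that the labels call biological triplicates. The labels name no treatment, and culture conditions and passages were not recorded in them. The embryonic stem cell (ESC) sources were the female line C3806 and the male line C3106, each a single line. The teratoma fibroblasts were explants of tumours that these lines formed in immune-compromised mice, 3 cultures from line 3806 (TA38, TB38 and TC38) and 5 from line 3106 (TA31, TB31, TC31, TD31 and TE31), so the cultures of a line share its genome. The skin fibroblasts were the cultures M032, M088 and M106p1, grown from skin explants of parents of the lines. The labels do not tie the skin donors to the lines and give neither their ages nor their sex. Teratoma and skin cultures therefore differ in origin, genome and donor together, and possibly in time in culture, which was not recorded. These cannot be told apart. Whether fewer cells of a type or less RNA per cell lowers a signal in a culture cannot be told apart either.

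Fibroblasts are mesenchymal cells that build and remodel the connective tissue matrix, and those of adult skin keep an expression profile that reflects where in the body they come from. The 7 genes belong to different pathways. FAM180A, C1QTNF5 and ISM1 code for secreted proteins, HYAL1 and MOXD1 for enzymes of internal membrane compartments, and KCNJ8 and ATP8B3 for membrane transporters. A teratoma is a mixed tumour of many tissues, so the cells of its explants need not share the origin of skin fibroblasts.

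The arrays labelled C3806c, M106p1f and TB31c had the profiles of other cultures and were left out of the values below unless stated, which left 36 of 39 arrays. Over all probe sets with a gene name, TB31c correlated at 0.998 with its closest array, which was of the skin culture M106p1, and at no more than 0.957 with the other TB31 arrays. M106p1f lay closest to TD31 (r = 0.998) and C3806c to TC38 (r = 0.997). Of the 36 remaining arrays 35 were closest to an array of their own culture, and the exception, C3806b, came from an ESC line. The 7 fibroblast markers, which include COL1A1, DCN and LUM, had a mean log2 signal of 6.93 to 7.01 in the ESC lines. It was 11.38 to 11.90 over the teratoma cultures and 11.37 to 11.60 over the skin cultures, so their mean was similar in both explant kinds. THY1, one of the 7, did not set ESCs apart, at 10.24 in ESCs, 10.07 in teratoma cultures and 10.15 in skin. The 7 ESC markers had means of 11.73 to 11.79 in the ESC lines, of 5.06 to 5.88 in teratoma cultures and of 4.83 to 4.91 in skin. In limma 0 of these 7 were called between teratoma and skin fibroblasts, with 2 at an unadjusted p under 0.05. SOX2 had 7.76 ± 2.55 (SD over cultures) in teratoma fibroblasts and 4.46 in skin. That difference was 3.70 (limma adjusted p = 0.0924), but 0.31 and 0.61 on its other probe sets. DNMT3B differed by 0.82 (adjusted p = 0.0906) and the rest by −0.05 to 0.02. The mean of the 7 skeletal muscle markers ran from 5.61 to 9.002 over the teratoma cultures and from 5.60 to 6.33 over skin. In limma 0 of these were called (2 at an unadjusted p under 0.05). Endothelial, keratinocyte and melanocyte markers had 0 calls between teratoma and skin fibroblasts in limma (1 of 7, 0 of 4 and 1 of 6 at an unadjusted p under 0.05). Over all genes 1.18% were called, and 3241 of 14132 had an unadjusted p under 0.05. Of 5 macrophage and leukocyte markers CD68 rose by 1.28 (limma adjusted p = 0.0455, though −0.89 on its other probe set), and of 4 neural markers STMN2 fell by 2.50 (adjusted p = 0.0450). Whether these markers have a part in the values of the 7 genes was not tested.

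Signals are log2 values, so a difference of 1 is a 2-fold change. Each gene is described by its brightest probe set, the one with the highest mean over the arrays used. Culture values are means of 2 or 3 arrays, and the difference between teratoma and skin fibroblasts gives the cultures of line 3806 and those of line 3106 equal weight, so it can deviate from the difference of the group means. In that comparison limma called 120 probe sets lower in teratoma fibroblasts, or 0.481% of all, at an adjusted p under 0.05 and a log2 difference of at least 1. Because this contrast chose the 7 genes, their differences in it are given as a description, with no test. All 7 had every teratoma culture mean below every skin culture mean, which held for 3.04% of all probe sets. At the level of single arrays 6 of the 7 were separated (0.673% of all probe sets), the exception being ATP8B3.

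**Figure D1:**
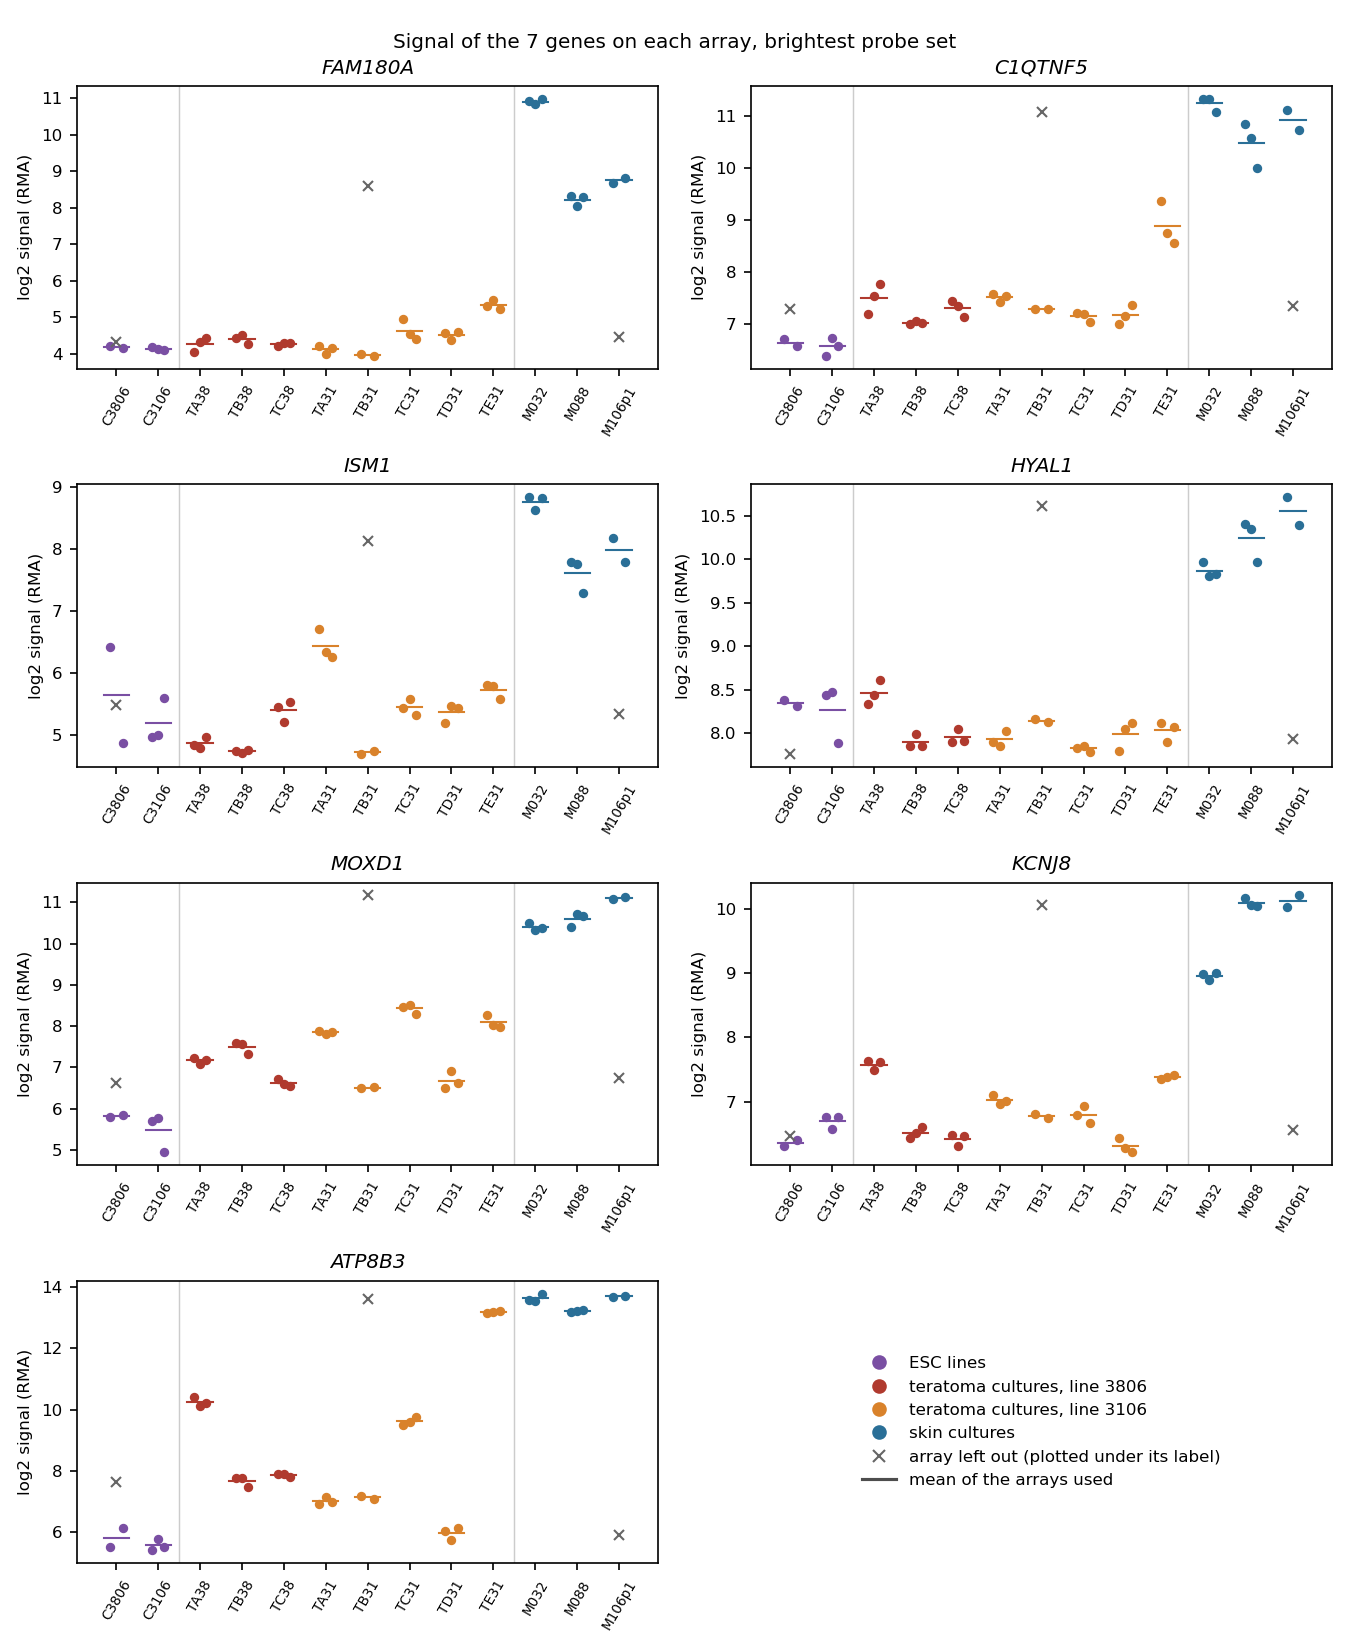
Log2 signal (vertical axis) of the brightest probe set of each of the 7 genes on every array, by culture (horizontal axis): ESC lines, then teratoma cultures of line 3806 and of line 3106, then skin cultures. Points are arrays, bars are means of the arrays used, and crosses are the 3 arrays left out. Skin arrays lie above the teratoma arrays for 6 genes, while for ATP8B3 culture TE31 at 13.19 reaches the skin cultures.

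Among the secreted proteins, FAM180A, a small predicted secreted protein whose function is little known (probe set MmunewRS.923.1.S1_at, rhesus chromosome 3), was close to the ESC level in the teratoma cultures. It had 4.18 in C3806 and 4.14 in C3106. Over the 8 teratoma cultures it ran from 3.97 in TB31 through a median of 4.34 to 5.34 in TE31, while the skin cultures had 10.91 in M032, 8.75 in M106p1 and 8.22 in M088. The groups did not overlap, and the lowest skin array lay 2.57 above the highest teratoma array. The means were 4.44 ± 0.42 in teratoma fibroblasts (SD, n = 8) and 9.29 ± 1.42 in skin fibroblasts (SD, n = 3), a difference of −4.88. The files used here hold no detection calls, and the teratoma values lay at the ESC level and below the array medians, so FAM180A is not shown to be above background there and no fold is given. Without culture M032, the highest, the difference was −4.07. From TC31 down to TA31 the neighbours in the order of levels, both ESC lines included, overlapped in their arrays.

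C1QTNF5 codes for a secreted member of the C1q and TNF related family that is mutated in a human late-onset retinal degeneration (MmugDNA.36483.1.S1_at, chromosome 14). It had 6.65 in C3806 and 6.58 in C3106. The teratoma cultures ran from 7.03 in TB38 through a median of 7.31 to 8.90 in TE31, and the skin cultures had 11.24 in M032, 10.93 in M106p1 and 10.48 in M088. TE31 stood apart from the next teratoma culture, TA31 at 7.52, and lay 1.58 below the lowest skin culture. The mean was 7.49 ± 0.59 (SD, n = 8) in teratoma fibroblasts and 10.88 ± 0.38 (SD, n = 3) in skin fibroblasts, a difference of −3.44. Both ESC lines lay below every teratoma culture.

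ISM1 codes for isthmin, a secreted protein with a thrombospondin repeat that was first described in the frog embryo and acts on blood vessel growth and metabolism in mice (MmugDNA.9689.1.S1_at, chromosome 10). Its level was 5.65 in C3806 and 5.19 in C3106. Teratoma cultures ran from 4.73 in TB31 through a median of 5.39 to 6.44 in TA31, and skin cultures had 8.77 in M032, 7.99 in M106p1 and 7.62 in M088. Here TA31, not TE31 (5.73), was the highest teratoma culture. The mean was 5.34 ± 0.58 in teratoma fibroblasts (SD, n = 8) against 8.13 ± 0.59 in skin fibroblasts (SD, n = 3), a difference of −2.85. That teratoma mean lay between the levels of C3106 and C3806 and below the array medians. Without detection calls, ISM1 is therefore not shown to be above background at that level. The C3806 arrays were far apart at 6.42 and 4.88. The higher, C3806a, also had a gap of 3.89 between the 3′ and 5′ actin control probe sets, against at most 0.78 in the 38 other arrays, and whether that gap bears on its ISM1 signal was not tested.

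Of the enzymes, HYAL1, a lysosomal hyaluronidase that breaks down the matrix sugar polymer hyaluronan (MmuSTS.271.1.S1_at, chromosome 2), had the smallest difference of the 7. It had 8.35 in C3806 and 8.27 in C3106. The teratoma cultures lay close together, from 7.83 in TC31 through a median of 7.97 to 8.46 in TA38, and skin had 10.55 in M106p1, 10.24 in M088 and 9.87 in M032. The means were 8.03 ± 0.20 in teratoma fibroblasts (SD, n = 8) and 10.22 ± 0.34 in skin fibroblasts (SD, n = 3), a difference of −2.17 or 4.51-fold. Both ESC lines lay inside the range of the teratoma cultures.

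MOXD1 codes for a relative of dopamine beta-hydroxylase, a copper-dependent monooxygenase (MmugDNA.27497.1.S1_at, chromosome 4). On this probe set its levels were the most graded of the 7 genes. It had 5.82 in C3806 and 5.48 in C3106, then 6.51 in TB31, 6.62 in TC38, 6.68 in TD31, 7.17 in TA38, 7.50 in TB38, 7.85 in TA31, 8.10 in TE31 and 8.43 in TC31, and above these 10.40 in M032, 10.59 in M088 and 11.10 in M106p1. Of the 12 pairs of neighbours in this order 10 had arrays that did not overlap, against 5 of 12 on its other probe set. How often all probe sets show such a separation was not counted, so this order is a description only. The mean was 7.36 ± 0.73 in teratoma fibroblasts (SD, n = 8) and 10.70 ± 0.36 in skin fibroblasts (SD, n = 3), a difference of −3.39.

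Of the transporters, KCNJ8, the pore subunit of an ATP-sensitive potassium channel of vascular smooth muscle and pericytes in humans and mice (MmugDNA.38484.1.S1_at, chromosome 11), had 6.36 in C3806 and 6.70 in C3106. The teratoma cultures ran from 6.30 in TD31 through a median of 6.79 to 7.58 in TA38, and skin had 10.13 in M106p1, 10.10 in M088 and 8.97 in M032. TA38 and TE31 (7.38) stood above the other teratoma cultures, and their arrays overlapped with no neighbour. The mean was 6.85 ± 0.45 in teratoma fibroblasts (SD, n = 8) against 9.73 ± 0.66 in skin (SD, n = 3), a difference of −2.88. The mean of the 4 measured pericyte markers ran from 8.90 to 9.38 over the teratoma cultures and from 9.40 to 9.68 over the skin cultures. In limma 0 of these 4 were called (2 at an unadjusted p under 0.05). CSPG4, a pericyte proteoglycan, differed by −0.95 and passed on p (adjusted p = 0.0219) but not on size. The adhesion molecule MCAM differed by −1.01 (adjusted p = 0.164). NOTCH3 and ANPEP went the other way, by 0.38 and 0.16 (adjusted p = 0.518 and 0.396). On other probe sets the difference was smaller for CSPG4, larger for MCAM and negative for NOTCH3 and ANPEP. CSPG4 and MCAM were picked after their values were seen, and the part of these markers in the KCNJ8 difference was not tested.

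ATP8B3, a lipid-translocating ATPase known from mouse testis and sperm (MmugDNA.7526.1.S1_at, chromosome 19), had the widest spread of the 7 among teratoma cultures, and TE31 went against the label of a gene low in teratoma fibroblasts. It had 5.81 in C3806 and 5.56 in C3106. The teratoma cultures had 10.25 in TA38, 7.66 in TB38, 7.86 in TC38, 7.01 in TA31, 7.12 in TB31, 9.61 in TC31, 5.97 in TD31 and 13.19 in TE31. The skin cultures had 13.70 in M106p1, 13.64 in M032 and 13.22 in M088. The TE31 arrays lay at 13.15, 13.19 and 13.24 and overlapped with those of M088 at 13.18, 13.22 and 13.27, while TD31 overlapped with the ESC line C3806. The mean was 8.58 ± 2.33 in teratoma fibroblasts (SD, n = 8) and 13.52 ± 0.26 in skin fibroblasts (SD, n = 3), a difference of −4.94, or −5.51 without TE31.

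With all 39 arrays under their labels the differences between teratoma and skin fibroblasts were smaller for each of the 7 genes, at −4.25 for FAM180A, −2.92 for C1QTNF5, −2.45 for ISM1, −1.80 for HYAL1, −2.75 for MOXD1, −2.38 for KCNJ8 and −3.85 for ATP8B3. The mean of TB31 was then raised by the array labelled TB31c, for ATP8B3 to 9.29 with it and 7.12 without it. The mean of M106p1 was lowered, for ATP8B3 to 11.09 with M106p1f and 13.70 without it.

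Of the 7 genes 4 had other probe sets, 5 in all, and these did not always repeat the difference. The second HYAL1 probe set (MmugDNA.37147.1.S1_at) averaged 6.41 ± 0.24 in teratoma fibroblasts (SD, n = 8) and 8.47 ± 0.36 in skin fibroblasts (SD, n = 3), a difference of −2.04. The second MOXD1 probe set (MmugDNA.35279.1.S1_at) averaged 5.66 ± 0.33 in teratoma fibroblasts against 8.03 ± 0.26 in skin fibroblasts, a difference of −2.39. Both kept every teratoma array below every skin array. The second ISM1 probe set (MmugDNA.2261.1.S1_at) lay at 5.71 ± 0.06 in teratoma fibroblasts and 6.01 ± 0.18 in skin, a difference of −0.30. Its highest teratoma culture mean was still 0.06 below its lowest skin culture mean, though the arrays overlapped. The other ATP8B3 probe sets (MmugDNA.10939.1.S1_at and MmugDNA.26933.1.S1_at) differed by 0.10 and −0.02. TE31 was the highest teratoma culture on both, at 6.76 and 6.40, within ranges of 6.29 to 6.76 and 6.13 to 6.40 over the 8 cultures. Differences of the size given for ISM1 and ATP8B3 were therefore seen on a single probe set each. The teratoma and skin means of their other probe sets lay within or below the range of array medians, 6.25 to 6.48. Without detection calls these sets are not shown to be above background there, so they cannot decide about the brightest ones. The differences of FAM180A, C1QTNF5 and KCNJ8 have no other probe set to compare.

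**Figure D2:**
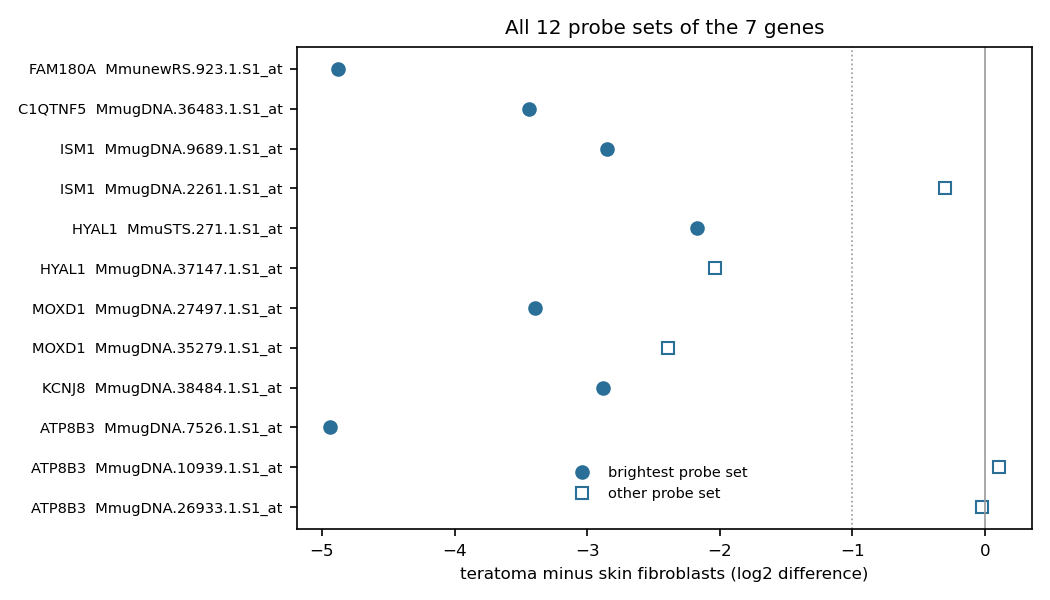
Difference between teratoma and skin fibroblasts (horizontal axis, log2) for all 12 probe sets of the 7 genes (vertical axis). Filled circles are the brightest probe set of a gene and open squares the others, and the dotted line marks a difference of −1. The other probe sets of HYAL1 and MOXD1 lie at −2.04 and −2.39, and those of ISM1 and ATP8B3 lie between −0.30 and 0.10.

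ESCs were set against teratoma fibroblasts because the labels describe these as differentiated progeny of the same lines. The ESC arrays took no part in choosing the genes but the teratoma arrays did, so these tests are not fully independent of the choice. MOXD1 fell in ESCs relative to teratoma fibroblasts, by 1.65 (SE 0.48, limma adjusted p = 0.0206), with both ESC lines below all 8 teratoma cultures. Each ESC line is a single source, and without C3106 or without C3806 the call was lost (adjusted p = 0.114 and 0.0651). Over its alternatives the difference ran from −1.83 to −1.48 and the adjusted p from 1.4e-05 to 0.114. On its other probe set, with 5.03 in ESCs and 5.66 in teratoma fibroblasts, the difference was −0.61 (adjusted p = 0.0599). Both of these means, and the ESC levels of MOXD1 and ATP8B3 on their brightest probe sets, lay below the array medians. Without detection calls neither gene is shown to be above background in ESCs. ATP8B3 differed by −2.90 (SE 1.55, adjusted p = 0.173) and C1QTNF5 by −0.83 (SE 0.41, adjusted p = 0.135), again with both ESC lines below every teratoma culture. The share of all probe sets with both ESC lines below every teratoma culture was not counted, so that order is a description only. ATP8B3 passed only in a fit on all arrays with the culture as a random block (adjusted p = 0.00594), and over its alternatives the difference ran from −3.23 to −2.32 and the adjusted p from 0.00594 to 0.359. The differences of the other 4 genes were −0.32 (SE 0.39) for KCNJ8, −0.25 (SE 0.57) for FAM180A, 0.15 (SE 0.40) for ISM1 and 0.26 (SE 0.18) for HYAL1, with adjusted p from 0.291 to 0.804. So 1 of 7 genes was called, where 14.6% of all probe sets were called in either direction, 6.12% higher and 8.51% lower in ESCs. The spread behind these tests came from the fibroblast cultures, and the ESC lines were assumed to vary like them.

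The difference between ESCs and skin fibroblasts shares its skin arrays with the choice of the genes and is given as values only. It was −7.84 for ATP8B3, −5.13 for FAM180A, −5.05 for MOXD1, −4.27 for C1QTNF5, −3.20 for KCNJ8, −2.70 for ISM1 and −1.91 for HYAL1. Every ESC array lay below every skin array for each of these genes, which were chosen as high in skin. The share of all probe sets with that separation of arrays was not counted, so the separation is a description only. By limma on culture means, a different measure that does not stand for that share, 9.77% of all probe sets were called lower in ESCs than in skin fibroblasts.

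**Figure D3:**
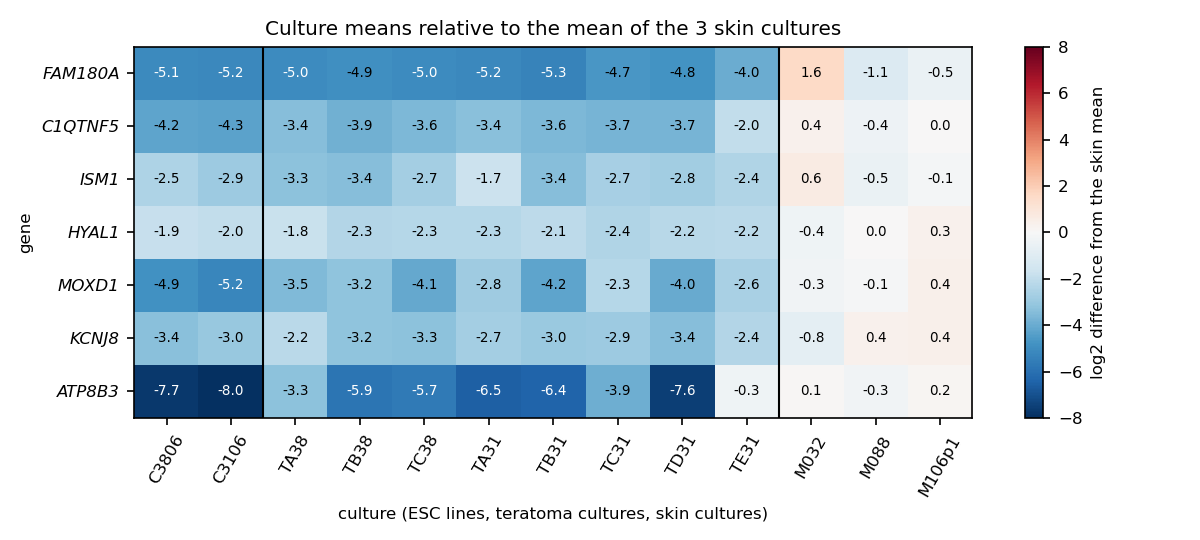
Mean log2 signal of each culture (columns: ESC lines, teratoma cultures of line 3806 and of line 3106, skin cultures) minus the mean of the 3 skin cultures, for the brightest probe set of the 7 genes (rows). Blue is below the skin mean and red above it, to a scale of 8 in either direction. TE31 lies 0.3 below the skin mean for ATP8B3 and 2.0 below it for C1QTNF5, and M032 lies 1.6 above it for FAM180A.

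Whether the teratoma cultures of the 2 lines differed was tested within the same fit. In limma 0 of the 7 genes were called, with 0 at an unadjusted p under 0.05, and 0.0321% of all probe sets were called. The differences of line 3806 minus line 3106 ran from −0.54 (SE 0.37) for ISM1 to 0.12 (SE 0.17) for HYAL1, and that of ATP8B3 was 0.01 with an SE of 1.42. In a limma F test on arrays, which measures the spread between arrays of a culture only, 6 of the 7 genes were called for differences among the teratoma cultures of a line, requiring a range of at least 1 within a line. The share of all probe sets called was 12.1%, or 14.6% of those with a culture mean of at least 6. ATP8B3 had a range of 2.59 among the cultures of line 3806 and of 7.22 among those of line 3106 (adjusted p = 1.13e-25). KCNJ8 had ranges of 1.16 in line 3806 and 1.08 in line 3106 (adjusted p = 6.8e-14), and MOXD1 of 0.88 in line 3806 and 1.92 in line 3106 (adjusted p = 6.59e-12). FAM180A, C1QTNF5 and ISM1 had ranges of 0.14, 0.47 and 0.66 among the cultures of line 3806, and of 1.36, 1.75 and 1.71 among those of line 3106 (adjusted p up to 4.25e-05). HYAL1 passed on p (adjusted p = 0.00587) but not on range, which was 0.56 in line 3806 and 0.32 in line 3106. With all 39 arrays the calls of FAM180A, C1QTNF5, ISM1, MOXD1 and KCNJ8 were lost (adjusted p from 0.215 to 0.727) and that of ATP8B3 was kept. That was the only alternative run that lost one of the 6 calls.

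TE31 was the highest teratoma culture for FAM180A, C1QTNF5 and ATP8B3, and TA38 for HYAL1 and KCNJ8. TE31 was also the highest teratoma culture for 55.8% of the 120 probe sets called lower in teratoma fibroblasts than in skin, and its mean reached the skin range for 6.67% of them. For none of the 7 genes did the TE31 mean reach the lowest skin culture mean, with ATP8B3 closest at 0.03 below. Over the 8 teratoma cultures the 21 pairs of the 7 genes had Pearson correlations from −0.42 (ISM1 with HYAL1) to 0.80 (C1QTNF5 with ATP8B3), with a median of 0.38 and 18 above 0. The rank correlation of C1QTNF5 with ATP8B3 was 0.33, and TE31 was the highest of the 8 cultures for both genes. These values are descriptive, and cultures of a line share its genome.

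Among the skin cultures the mean was highest in M032 for FAM180A, C1QTNF5 and ISM1, and in M106p1 for HYAL1, MOXD1, KCNJ8 and ATP8B3. The arrays of the highest and the next skin culture overlapped for C1QTNF5, HYAL1, KCNJ8 and ATP8B3, so the top rank is separated only for FAM180A, ISM1 and MOXD1. In the F test 3 of the 7 genes were called for differences among skin cultures, against 8.39% of all probe sets and 10.2% of those with a culture mean of at least 6. FAM180A had a range of 2.69 (adjusted p = 5.75e-17), KCNJ8 of 1.16 (adjusted p = 1.55e-12) and ISM1 of 1.15 (adjusted p = 0.000632). ISM1 was not called without the arrays lettered c (range 0.96, adjusted p = 0.0676), and over its alternatives the adjusted p ran from 1.77e-06 to 0.121. The other 4 genes had ranges from 0.48 to 0.76 and adjusted p from 0.00122 to 0.00992, below the limit on range. With all 39 arrays the calls of ISM1 and KCNJ8 were lost (adjusted p = 0.121 and 0.323) and that of FAM180A was kept. Each skin culture comes from 1 animal as far as the labels tell, so donor and culture cannot be told apart.

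Between teratoma and skin fibroblasts the other genes of the families and pathways of the 7 were called at about the share of all genes. Of 92 such genes measured on their brightest probe set, LOXL3 was the single gene called, against 1.18% of all genes, and the median difference was −0.05 against 0.01 over all genes (21 of the 92 and 3241 of all 14132 genes had an unadjusted p under 0.05). LOXL3, a copper-dependent enzyme that cross-links collagen and elastin, fell to 8.42 ± 0.50 in teratoma fibroblasts (SD, n = 8), against 10.01 ± 0.25 in skin fibroblasts (SD, n = 3), a difference of −1.66 (SE 0.26, adjusted p = 0.0136). It was 1 of 8 copper enzyme and copper handling genes. The collagen cross-linkers LOXL2 and LOX lay at 0.98 and 0.44 and dopamine beta-hydroxylase (DBH), the namesake of the MOXD1 family, at −0.11, with adjusted p from 0.158 to 0.473.

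Of 21 hyaluronan genes 0 were called (4 at an unadjusted p under 0.05 in limma). HAPLN1, which links hyaluronan to proteoglycans, had 9.23 in teratoma fibroblasts and 6.78 in skin fibroblasts, a difference of 2.46 (adjusted p = 0.187), and ITIH5, a hyaluronan-binding protein, differed by 1.32 (adjusted p = 0.147). The hyaluronan synthases HAS2 and HAS1 differed by −1.21 and −1.17 (adjusted p = 0.290 and 0.0576). HYAL2, the other measured hyaluronidase of the HYAL gene cluster, differed by −0.06. HYAL2 was picked out after its value was seen.

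Of 12 measured inward rectifier channel genes 0 were called (2 at an unadjusted p under 0.05). KCNJ16, KCNJ13, KCNJ12 and KCNJ15 differed by −0.90, −0.54, −0.49 and −0.13, of which KCNJ13 and KCNJ12 passed on p (adjusted p = 0.0276 and 0.0313) but not on size. ABCC9, the receptor subunit that pairs with KCNJ8, was not analysed here. Of 23 C1q and TNF related genes 0 were called (3 at an unadjusted p under 0.05), with COL8A2, a short-chain collagen, at 2.10 (adjusted p = 0.126), C1QTNF7 at 0.67, COL10A1, the collagen of growth cartilage, at −0.63 and C1QTNF2 at −0.53.

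Of 18 isthmin and thrombospondin repeat genes 0 were called (5 at an unadjusted p under 0.05). CCN3, a matricellular growth regulator, had 10.67 in teratoma fibroblasts and 7.22 in skin fibroblasts, a difference of 3.17 (adjusted p = 0.144), and ADAMTSL1, SPON2 and SEMA5B differed by −1.17, −0.98 and −0.87, of which SEMA5B passed on p (adjusted p = 0.00429) but not on size. Of 10 flippase genes 0 were called (4 at an unadjusted p under 0.05). ATP8B4 differed by −0.71, XKR8, a lipid scramblase, by −0.68, ATP8B1 by −0.39 and ATP11A by 0.37, and XKR8 passed on p (adjusted p = 0.0164) but not on size. FAM180B was not analysed here.

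**Figure D4:**
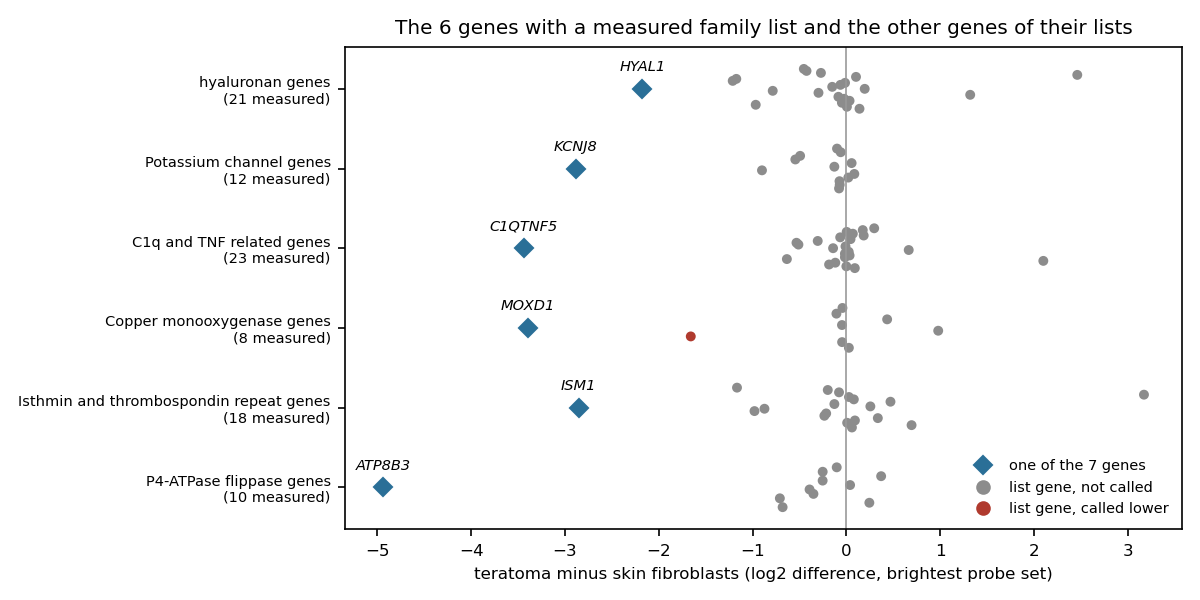
Difference between teratoma and skin fibroblasts (horizontal axis, log2, brightest probe set) for 6 of the 7 genes (blue diamonds) and for the other measured genes of their family lists (points, 1 row per list). LOXL3 at −1.66 is the red point, the only list gene called, and the 7 genes were chosen on this difference, which ran from −2.17 for HYAL1 to −4.94 for ATP8B3 among those drawn.

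By position, the 7 genes lie on 7 different rhesus chromosomes in the RefSeq gene list of assembly T2T-MMU8v2.0. Of the 42 protein-coding genes within 3 places of one of them in that list, 31 were measured, with a median difference of −0.08. Between teratoma and skin fibroblasts limma called 0 of these 31, against 1.18% of all genes, so few calls could arise among them. At an unadjusted p under 0.05 there were 12 of the 31 and 3241 of all 14132 genes. The largest differences were those of PTN, a secreted growth factor near FAM180A, at 2.37 (adjusted p = 0.133), JAG1, a Notch ligand near ISM1, at 1.56 (adjusted p = 0.197), and the pericyte marker MCAM near C1QTNF5 at −1.01 (adjusted p = 0.164), all picked after their values were seen. TCF3, a transcription factor near ATP8B3, differed by 0.81 and was the only neighbour that passed on p (adjusted p = 0.0199), but not on size.

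Genes with the most similar profile were sought over the 13 culture means of all genes, and since the contrast that chose the 7 genes enters these correlations, they are a description with no test. FAM180A was most like FAM228A (r = 0.994), ABCA8 (0.986) and HOXB7 (0.980), and C1QTNF5 most like IL15 (0.971), VAX2 (0.967) and ACSL5 (0.963). ISM1 was most like HECTD4 (0.947), with FAM180A and FAM228A next (0.937 each). HYAL1 and KCNJ8 found each other (0.956) and shared KRBOX1 (0.980 and 0.956) and PPIP5K1 (0.951 and 0.967) as neighbours. MOXD1 was most like SGCD (0.957), NIPAL3 (0.934) and PICALM (0.933), and ATP8B3 most like CHP2 (0.970), EDEM2 (0.959) and PATE2 (0.952). CHP2 also had a high level in TE31, at 9.88, with means of 7.95 in teratoma fibroblasts and 10.16 in skin fibroblasts.

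The most opposite profiles belonged to MEST, an imprinted growth gene, for FAM180A and ISM1 (r = −0.973 and −0.934), to ZNF711 for C1QTNF5 (−0.976), to SOX11, a progenitor transcription factor, for HYAL1 (−0.926), to MED30 for MOXD1 (−0.963), to GOLM1 for KCNJ8 (−0.947) and to TSPAN7 for ATP8B3 (−0.981). MEST had 12.06 in teratoma fibroblasts and 6.43 in skin fibroblasts, and SOX11 had 8.59 in teratoma fibroblasts and 4.27 in skin fibroblasts.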

How the data were processed

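The authors deposited log2 signals, 1 per probe set and array, made with GCOS and RMA per the submitters' processing notes, with versions and settings not given in the sources used here. RMA corrects background, aligns the arrays' distributions and summarises probes. Values ran from 2.11 to 14.18 and array medians from 6.25 to 6.48. No scan date was used here.

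Gene names came from the platform annotation, and of 52865 probe sets 24956 non-control sets with 1 gene were tested. Arrays of each of the 13 cultures were averaged and fitted with limma 3.58.1 in R 4.3.3 as 5 classes (each ESC line, the teratoma cultures of each line, skin), with 8 residual degrees of freedom. F tests among cultures used 36 arrays (23 residual degrees of freedom). P-values were adjusted (Benjamini-Hochberg) over all tested probe sets, two-sided, and calls needed adjusted p under 0.05 and a log2 difference of at least 1. The fits were tested on simulated data. The number of arrays limits the precision. The 7 genes, the family lists and the naming rule (each gene, up to 4 genes per list with the largest difference, the 3 most similar profiles and the most opposite one) were chosen with earlier results of these data known. Neighbouring genes were added after the values were seen. Alternatives covered arrays, cultures, dim probe sets, normalization, variance prior, unit of the fit and replicate letters. Promoter and protein sequences were not used here.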

Additional observations from a re-analysis of the deposited data

Results flagged for a closer look

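C1QTNF5 in TE31 stood apart from the other teratoma cultures. Its mean of 8.90 lay further from the next culture than Dixon's critical value allows, both among the 5 cultures of line 3106 and among all 8 teratoma cultures. In all, 24 groups of cultures were examined in this way over the 12 probe sets, and 2 exceeded the limit. Chance alone flags about 1 in 20 such groups, and the 2 here share the same probe set and culture. TE31 was the highest of the 5 cultures of line 3106 for 41.2% of all probe sets. The share of all probe sets on which TE31 exceeds Dixon's limit was not counted, so its place is not shown to be particular to C1QTNF5.

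The array labelled TB31c was kept out of the comparisons, and it lay above every teratoma array used for each of the 7 genes. Its log2 signals were 8.61 for FAM180A, 11.07 for C1QTNF5, 8.14 for ISM1, 10.61 for HYAL1, 11.17 for MOXD1, 10.06 for KCNJ8 and 13.62 for ATP8B3. These values stand beside those of the skin culture M106p1, whose means were 8.75, 10.93, 7.99, 10.55, 11.10, 10.13 and 13.70 in the same order.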

How the results depend on the processing

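The difference between teratoma and skin fibroblasts kept its negative sign for each of the 7 genes under all alternatives run, and moved by more than the spread between cultures in 2 cases, HYAL1 with all 39 arrays (−1.80) and FAM180A without M032 (−4.07). The number of probe sets called in that comparison (145 higher and 120 lower in teratoma fibroblasts) was unstable. It was 43 and 29 with all 39 arrays, 528 and 398 with all arrays and the culture as a random block, and 93 and 77 with the brightest probe set per gene. With each culture left out in turn it ran from 44 to 328 higher and from 63 to 248 lower. The highest counts came without TE31, the lowest came without M032 (higher) and without TC38 (lower). Leaving out M106p1, TA31, TB31, TB38 or TC38 also moved the higher count by over 1.5 times (58, 78, 77, 74 and 61), and M032, TA31, TB31 and TB38 the lower count (68, 67, 73 and 70). Between the teratoma cultures of the lines (6 higher and 2 lower in line 3806) the random block gave 39 and 35, the brightest probe sets 1 lower, and leaving out a culture 1 to 8 higher and 0 to 5 lower, with either count moved by over 1.5 times without any of M088, M106p1, TA31, TA38, TB31, TB38, TC31, TC38 or TE31. With the brightest probe set per gene, where fewer features were tested, ESCs had 888 higher and 1155 lower against teratoma fibroblasts (1528 and 2124 over all probe sets) and 1444 and 1379 against skin (2377 and 2439). The F test among skin cultures called 2093 probe sets, and 1258 with all 39 arrays. The letters of the arrays share no stated meaning across cultures, and deviations of same-letter arrays had a median correlation of 0.06 (lowest −0.51). With the letter as a replicate block the F tests called 3062 (teratoma) and 2001 (skin) probe sets, against 3025 and 2093, and the call of no member gene changed. Other causes of these shifts were not tested.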
